A study of Homo sapiens with 8 samples.

Results

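The genes described here are 10 components of the extracellular proteolysis system: the matrix metalloproteinases MMP1, MMP2, MMP14 and MMP16, the tissue inhibitors of metalloproteinases TIMP1, TIMP2 and TIMP3, the plasminogen activators PLAT and PLAU, and the urokinase receptor PLAUR. They were chosen by name, through their Entrez gene identifiers, and all 10 were found among the 18478 genes of the authors' table. RNA-seq had been run on A2058 and C8161, human melanoma cell lines, in 4 groups: C8161 retrovirally transduced with ATF3, C8161 neomycin controls, A2058 transduced with ATF3, and A2058 neomycin controls. ATF3 encodes a stress-inducible transcription factor of the bZIP class, which also holds the AP-1 and CREB proteins. All groups were kept in DMEM with serum and antibiotics. The labels list 3 libraries for each C8161 group and 1 for each A2058 group, and do not say whether the 3 came from separate transductions or cultures. The table holds 1 column per group in RPKM, a read count divided by transcript length and by sequencing depth, and the C8161 columns are the authors' combined values. No group therefore had a replicate spread, no test was possible, and each difference below describes single values.

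Matrix metalloproteinases are zinc-dependent enzymes, made as inactive proenzymes, that cut collagens and other matrix proteins. TIMPs bind their active sites and block them. The plasminogen activators are serine proteases that turn plasminogen into plasmin, a broad protease that degrades fibrin, cleaves matrix proteins and activates several metalloproteinase proenzymes. PLAUR anchors urokinase, the product of PLAU, at the cell surface. In melanoma, both systems are known for their part in invasion through the dermis and basement membranes.

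The introduced gene was higher in both lines. ATF3 was at 62.6 RPKM in C8161 with ATF3 against 4.76 RPKM in C8161 controls, and at 4.71 RPKM in A2058 with ATF3 against 1.22 RPKM in A2058 controls. The melanocyte lineage markers MITF, PMEL, MLANA, TYR, DCT, TYRP1, SOX10 and S100B summed to 1.74 RPKM in C8161 with ATF3 and 1.6 RPKM in C8161 controls, with TYR listed at 0 in both. They summed to 1550 RPKM in A2058 with ATF3 and 1510 RPKM in A2058 controls, so the lineage markers of the labelled cell type were near absent from C8161. The sum of 5 markers of the dedifferentiated melanoma state (AXL, NGFR, SOX9, EGFR and WNT5A) ran the other way. It was 350 RPKM in C8161 with ATF3 and 334 RPKM in C8161 controls, against 16.1 RPKM in A2058 with ATF3 and 14.5 RPKM in A2058 controls. Most of the C8161 sum was AXL, at 294 RPKM with ATF3 and 280 RPKM in controls. Between the control columns 4 of the 5 were higher in C8161 by a log2 ratio of 1 or more. Of all 12372 genes compared, 9.36% were higher and 20.7% lower by as much. NGFR was lower, at 0.06 RPKM in C8161 controls and 2.93 RPKM in A2058 controls. Fibroblast markers, which matter because fibroblasts secrete many of these enzymes, summed to 3.46 and 3.21 RPKM in the C8161 columns (with ATF3 and control) and to 22.4 and 20.3 RPKM in the A2058 columns. COL3A1 and DCN were listed at 0 in both C8161 columns. In A2058 controls LUM, THY1 and COL1A1 were at 7.67, 7.09 and 3.97 RPKM, and each other marker of the list was under 1 RPKM. FAP ran the other way, at 2.31 RPKM in C8161 controls and 0.62 RPKM in A2058 controls. In whole-culture RNA, a change in the number of cells that express a gene and a change in RNA per cell cannot be told apart.

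The 2 lines carried different proteolytic sets, and within each line the order of their levels was the same, or nearly so, with and without introduced ATF3. In both C8161 columns the order of levels was PLAU, PLAUR, MMP14, TIMP1, TIMP2, MMP2, TIMP3, PLAT, MMP16 and MMP1, from highest to lowest. In A2058 with ATF3 the order was TIMP2, MMP1, MMP14, TIMP1, TIMP3, PLAT, PLAUR, MMP2, MMP16 and PLAU, and A2058 controls differed from it in having MMP14 above MMP1. RPKM is a value per length, so these levels can be set beside each other, but without a spread no neighbours in either order can be called different. The most abundant gene of C8161 controls, PLAU, was the least abundant of A2058 controls, and MMP1 was at the bottom in C8161 and near the top in A2058.

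**Figure D1:**
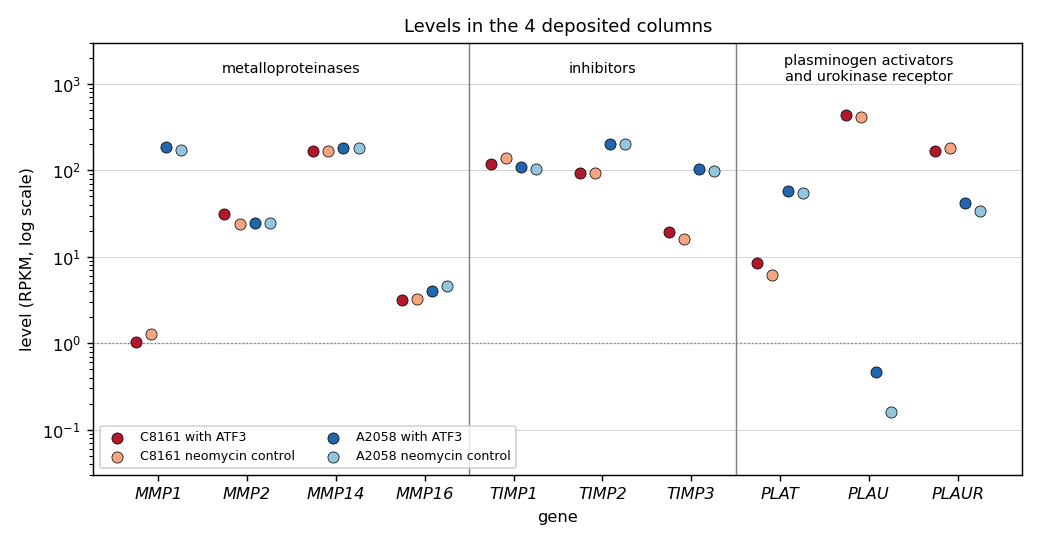
RPKM (log axis) of the 10 genes in the 4 columns of the table, one point per column, grouped by role; the dotted line marks 1 RPKM. MMP1 and PLAU are separated by line in opposite directions, MMP14 lies between 166 and 182 RPKM in all 4 columns, and the points of each line's ATF3 and control columns lie close together except for PLAU in A2058.

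Of the metalloproteinases, MMP1, the interstitial collagenase that opens fibrillar collagen (Entrez gene 4312; chromosome 11, 102789919 to 102798160, GRCh38.p14), was at 1.03 RPKM in C8161 with ATF3, 1.29 RPKM in C8161 controls, 186 RPKM in A2058 with ATF3 and 171 RPKM in A2058 controls. Both C8161 values were near the 1 RPKM level minimum used for comparison, whereas the A2058 values stood at ranks 361 (with ATF3) and 398 (control) of 18478 genes. C8161 controls were 133-fold lower than A2058 controls, with a log2 ratio of −6.23 on the scale of log2(RPKM + 1) that all log2 ratios here have, which shrinks the ratios of low genes. From the low end this was rank 29 of 12372 genes compared between the control columns. The log2 ratio of ATF3 cells over controls was −0.17 in C8161 and 0.12 in A2058.

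MMP2, gelatinase A, which cuts denatured collagen and basement membrane collagen (chromosome 16, 55478830 to 55506691), had a different pattern. It was at 31.2 RPKM in C8161 with ATF3 and 23.7 RPKM in C8161 controls, and at 24.5 RPKM in A2058 with ATF3 and 24.7 RPKM in A2058 controls. C8161 with ATF3 was thus the single high column, and the remaining columns lay within about 1 RPKM of each other. The fold of RPKM in C8161 was 1.32 and the log2 ratio 0.38, rank 56 from the highest of 10941 genes compared; in A2058 the log2 ratio was −0.01.

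MMP14, the membrane-type enzyme that activates the MMP2 proenzyme at the cell surface (chromosome 14, 22836585 to 22847758), varied least of the 10 genes across the 4 columns. Its level was 166 RPKM in C8161 with ATF3, 168 RPKM in C8161 controls, 179 RPKM in A2058 with ATF3 and 182 RPKM in A2058 controls. The log2 ratio of ATF3 cells over controls was −0.02 in each line, and that of C8161 controls over A2058 controls was −0.11. MMP16, another membrane-type metalloproteinase (chromosome 8, 88032011 to 88327483), was low in all columns, at 3.16 RPKM in C8161 with ATF3, 3.27 RPKM in C8161 controls, 4.05 RPKM in A2058 with ATF3 and 4.53 RPKM in A2058 controls. Its log2 ratios of ATF3 cells over controls were −0.04 in C8161 and −0.13 in A2058.

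Summed over the 4 metalloproteinases, the level was 202 RPKM in C8161 with ATF3 and 196 RPKM in C8161 controls, against 394 RPKM in A2058 with ATF3 and 383 RPKM in A2058 controls. MMP14 made up 82.4% of the sum in C8161 with ATF3 and 85.6% in C8161 controls. In A2058 the sum was shared, with MMP14 at 45.5% and MMP1 at 47.3% in cells with ATF3, and MMP14 at 47.6% and MMP1 at 44.8% in controls.

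Among the inhibitors, TIMP1, a secreted inhibitor that acts only weakly on membrane-type metalloproteinases (chromosome X, 47582436 to 47586789), was at 117 RPKM in C8161 with ATF3, 139 RPKM in C8161 controls, 108 RPKM in A2058 with ATF3 and 103 RPKM in A2058 controls. C8161 controls were the highest column, and the C8161 cells with ATF3 lay nearer to the A2058 columns than to their own controls. The log2 ratio of ATF3 cells over controls was −0.24 in C8161 and 0.07 in A2058. The longest TIMP1 transcript has 57.9% GC, and once the trends of the C8161 ratio with GC content and length over all genes were removed, its log2 ratio was −0.15.

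TIMP2, the inhibitor that at the cell surface also links the MMP2 proenzyme to MMP14 (chromosome 17, 78852977 to 78925387), was at 92.28 RPKM in C8161 with ATF3 and 92.42 RPKM in C8161 controls, and at 203.88 RPKM in A2058 with ATF3 and 203.74 RPKM in A2058 controls. Its log2 ratios of ATF3 cells over controls were −0.002 in C8161 and 0.001 in A2058, the smallest in size of the 10 genes in each line. C8161 controls were 2.2-fold below A2058 controls. Cut into 50-base stretches, 13% of its longest transcript is also found in transcripts of genes annotated at the same place, CEP295NL among them, which was at 0.21 RPKM or less in all columns.

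TIMP3, which stays bound to the matrix and also inhibits shedding enzymes of the ADAM family (chromosome 22, 32801705 to 32863041), was at 19.5 RPKM in C8161 with ATF3, 15.9 RPKM in C8161 controls, 103 RPKM in A2058 with ATF3 and 98.8 RPKM in A2058 controls. The fold of RPKM with ATF3 was 1.22 in C8161 (log2 ratio 0.27) and 1.04 in A2058 (log2 ratio 0.05). C8161 controls were 6.21-fold below A2058 controls. TIMP3 lies inside SYN3, which is read from the opposite strand and encodes the neuronal protein synapsin III. SYN3 was at 6.28 RPKM in C8161 with ATF3 and 4.53 RPKM in C8161 controls, and at 1.39 RPKM in A2058 with ATF3 and 1.17 RPKM in A2058 controls. The 2 genes were thus both higher with ATF3 in C8161, but between the control columns they ran opposite ways, SYN3 being 3.87-fold higher in C8161. Their annotated exons share 0 bases; the strand setting of the authors' counting is not given in the sources used here, and the part of SYN3 reads in the TIMP3 value was not tested.

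The balance of enzymes to inhibitors is given here by column, with no spread against which to judge a shift with ATF3. Summed RPKM of the 4 metalloproteinases over that of the 3 TIMPs was 0.88 in C8161 with ATF3 and 0.793 in C8161 controls, and 0.951 in A2058 with ATF3 and 0.943 in A2058 controls. MMP14 over TIMP2, the pair that handles the MMP2 proenzyme, was 1.8 in C8161 with ATF3 and 1.82 in C8161 controls, against 0.88 in A2058 with ATF3 and 0.893 in A2058 controls. MMP14 over MMP2 was 5.32 in C8161 with ATF3 and 7.09 in C8161 controls, against 7.32 in A2058 with ATF3 and 7.38 in A2058 controls. These are ratios of transcript levels and say nothing of protein or of activity.

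**Figure D2:**
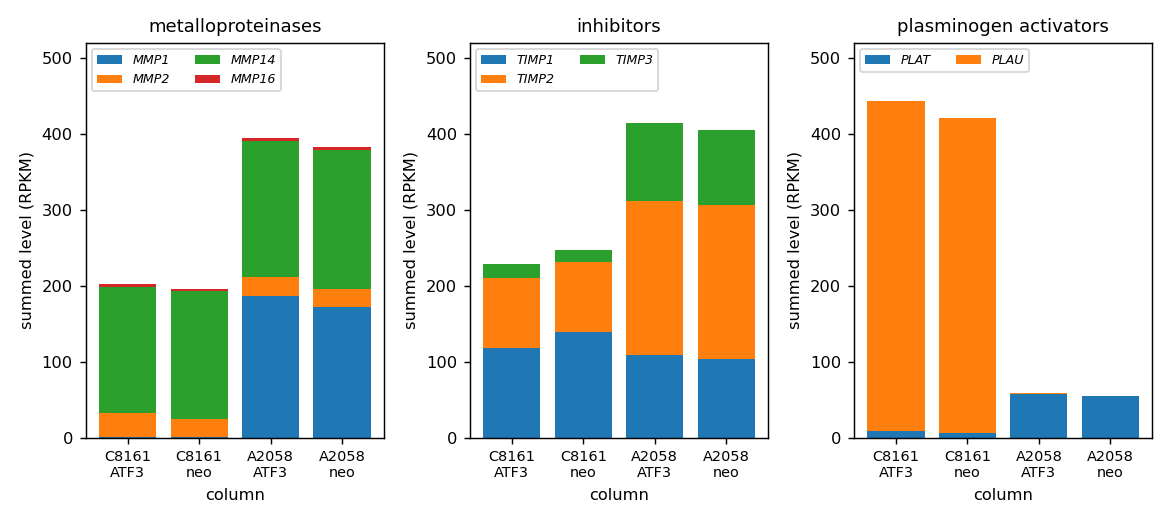
Summed RPKM of the metalloproteinases, the inhibitors and the plasminogen activators in each column, with one colour per gene; C8161 is left of A2058 and cells with ATF3 are left of their controls (neo). C8161 holds MMP14 with little MMP1 and almost only PLAU among the activators, whereas A2058 holds MMP14 and MMP1 at like levels and almost only PLAT.

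The plasminogen activators were swapped between the lines. PLAT, tissue plasminogen activator (chromosome 8, 42174718 to 42207565), was at 8.5 RPKM in C8161 with ATF3 and 6.21 RPKM in C8161 controls, and at 57.6 RPKM in A2058 with ATF3 and 55.2 RPKM in A2058 controls. The fold of RPKM with ATF3 was 1.37 in C8161, with a log2 ratio of 0.40 at rank 38 from the highest of 10941 genes, and 1.05 in A2058, with a log2 ratio of 0.06. C8161 controls were 8.88-fold below A2058 controls.

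PLAU, urokinase-type plasminogen activator (chromosome 10, 73908832 to 73917494), was at 434 RPKM in C8161 with ATF3 and 414 RPKM in C8161 controls, against 0.47 RPKM in A2058 with ATF3 and 0.16 RPKM in A2058 controls. Between the control columns its log2 ratio of 8.48 was the highest of 12372 genes. Steps of whole reads in the low values put the A2058 columns at about 17600000 and 17400000 reads (with ATF3 and control), at which the A2058 PLAU values stand for about 22 and 7 reads, so the 2590-fold difference rests on very few A2058 reads and its size is approximate. The C8161 columns showed weaker steps (coherence 0.083 and 0.165, against 0.31 and 0.332 in A2058) and their depth is unknown. PLAU made up 98.1% of the summed activator level in C8161 with ATF3 and 98.5% in C8161 controls, against 0.809% in A2058 with ATF3 and 0.289% in A2058 controls. C10orf55, annotated on the opposite strand, shares 916 of the 2950 exon bases of PLAU; it was at 1.62 RPKM in C8161 with ATF3 and 1.6 RPKM in C8161 controls, and was listed at 0 in both A2058 columns.

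With ATF3, PLAU had a log2 ratio of 0.07 in C8161. In A2058 both of its values lay under 1 RPKM, so it was left out of the comparison there; its A2058 fold of 2.94 is that between the 22 and 7 reads given above.

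PLAUR, the receptor that concentrates urokinase on the cell surface (chromosome 19, 43646095 to 43670169), was at 168 RPKM in C8161 with ATF3 and 183 RPKM in C8161 controls, against 41.6 RPKM in A2058 with ATF3 and 33.4 RPKM in A2058 controls. With ATF3 it was higher in A2058 (1.24-fold, log2 ratio 0.31, rank 144 from the highest of 11883 genes). In C8161 its log2 ratio was −0.13, inside the threshold of 0.25 used for the ATF3 comparison, and −0.06 with GC and length trends removed. C8161 controls were 5.48-fold above A2058 controls. The receptor and its ligand were thus both higher in C8161, but receptor transcripts were plentiful in A2058 where PLAU was nearly absent.

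RefSeq promoter windows of GRCh38.p14, from 250 bases before to 50 bases after a transcript start, were available for 5 of the 10 genes: MMP14, TIMP1, TIMP3, PLAU, with 2 starts, and PLAUR. They were searched on both strands for TGAGTCA (read as TGACTCA on the other strand), the consensus of AP-1, for TGACGTCA, the cyclic AMP response element that ATF/CREB dimers can bind, and for TGACGCAA, a composite element of ATF4. These are held by 4.95%, 1.85% and 0.513% of 35116 windows. The single match was TGAGTCA in the PLAUR window, 186 to 180 bases before the start. The stretch is shown as the only match in the windows searched. It is read along the minus strand, chr19:43670337-43670366, and capitals mark the match.
PLAUR: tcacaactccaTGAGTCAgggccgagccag
The match describes letters alone.

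The comparison of cells with introduced ATF3 and neomycin controls asks whether the transcripts of this system move with ATF3. In C8161, 3 of the 10 genes, MMP2, TIMP3 and PLAT, were higher by a log2 ratio of 0.25 or more, where 2.58% of all 10941 genes compared were. Of the 3749 genes with a mean of at least 20 RPKM, 2.13% were. MMP2 exceeds that level, whereas TIMP3 and PLAT were under it in both C8161 columns. None of the 10 was lower by 0.25 or more, where 3.2% of all genes were. With the trends in GC content and length removed, the shares over all genes were 3.34% higher and 0.985% lower, and the genes of the system kept their calls. TIMP1, at −0.244, lay just inside the threshold, and TIMP3, at 0.275, just past it. The count of none lower is therefore a close one: TIMP1 was called lower, at −0.25, with the median ratio of all genes set to 0, and MMP1, at −0.30 and −0.32, with pseudocounts of 0.1 and 0.01, which gave 1 lower gene and 4 calls in each case. With the median set to 0, 2.34% of all genes were higher and 3.59% lower. With pseudocounts of 0.1 and 0.01, 4.34% and 4.52% were higher and 5.1% and 5.27% lower. With the main settings the median log2 ratio of the 10 genes was −0.01, beside 0.01 over all genes. A threshold of 0.125 would add MMP1, TIMP1 and PLAUR, all lower with ATF3, so that the genes on either side would number 3 and 3. Of all genes compared in C8161, 15% were higher and 15.9% lower at that threshold. In A2058, 9 genes could be compared; 1 of them, PLAUR, was higher by 0.25 or more, where 2.34% of 11883 genes were, and 0.433% of the 4155 genes with a mean of at least 20 RPKM, a level that PLAUR exceeds. None was lower, where 1.85% of genes were. The median over the 9 was 0.05, beside 0.00 over all genes. In the same C8161 comparison the 5 endothelial markers summed to 18.8 RPKM with ATF3 and 9.33 RPKM in controls, nearly all of it CDH5, the adhesion molecule VE-cadherin, at 18.1 RPKM with ATF3 and 8.86 RPKM in controls; the others (PECAM1, VWF, KDR and TEK) were each under 1 RPKM in both columns. The part of this in the values of MMP2, TIMP3 and PLAT was not tested. With so few genes, counts of 3 and 1 describe those genes and not the system.

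**Figure D3:**
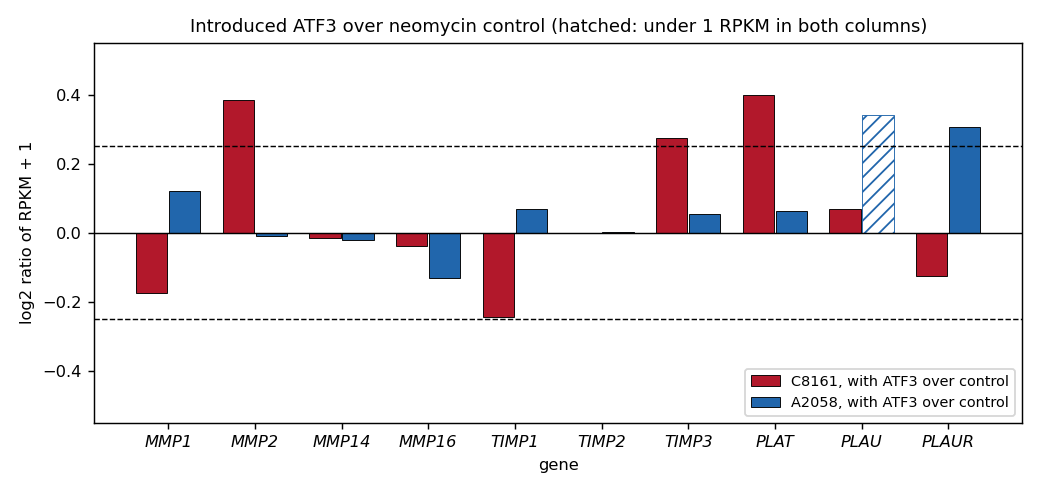
Log2 ratio of RPKM + 1, cells with ATF3 over neomycin controls, for each gene in C8161 (red) and A2058 (blue); dashed lines mark 0.25 in each direction and the hatched bar is PLAU in A2058, with both values under 1 RPKM. MMP2, TIMP3 and PLAT pass the upper line in C8161 and PLAUR passes it in A2058. The hatched PLAU bar, at 0.34, also passes it but was left out of the comparison. No bar passes the lower line.

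**Figure D4:**
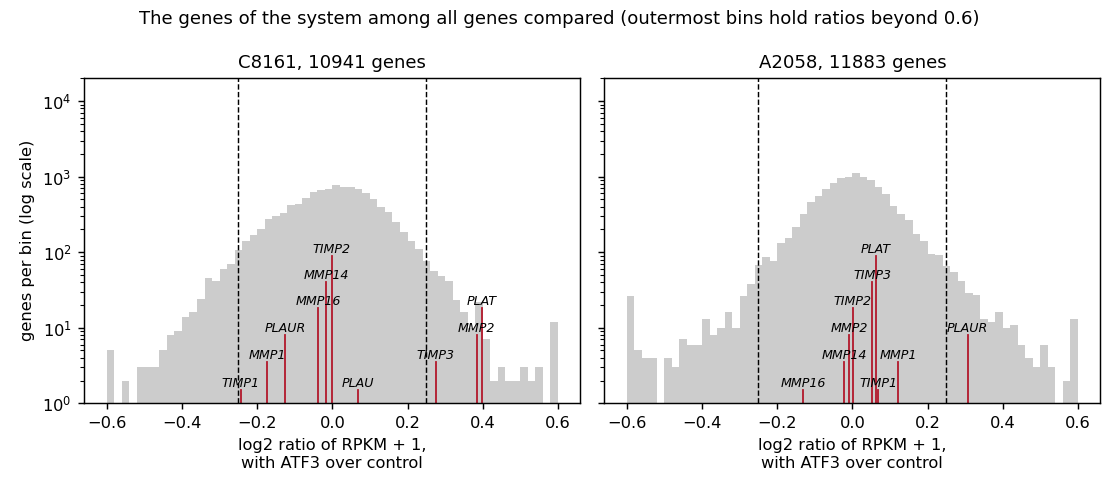
Number of genes per bin (log axis) by log2 ratio of RPKM + 1, with ATF3 over control, for all genes compared in C8161 (left) and A2058 (right); red lines mark the genes of the system, their heights having no meaning, and dashed lines mark 0.25 in each direction. MMP2 and PLAT stand in the upper tail in C8161, PLAUR stands in the upper tail in A2058, and the other marked genes lie inside the dashed lines but for TIMP3 in C8161, just past one.

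None of the 9 genes compared in both lines passed the threshold in both, and PLAU could not be compared in A2058. The share of all genes that did was not counted, so this is not a result about these genes. Few genes passed it in either line: 2.58% higher and 3.2% lower in C8161, and 2.34% and 1.85% in A2058. The difference of the log2 ratios, C8161 minus A2058, was 0.39 for MMP2, 0.34 for PLAT and 0.22 for TIMP3, and −0.43 for PLAUR, −0.31 for TIMP1 and −0.29 for MMP1. A difference of 0.25 or more upward was seen in 5.71% and downward in 6.99% of the 10331 genes compared in both lines. With GC and length trends removed in each line, the difference was −0.19 for TIMP1, no longer past 0.25, and −0.34 for PLAUR. For MMP14, MMP16 and TIMP2 it was at most 0.09 in size. ATF3 itself was 13.1-fold over control in C8161 and 3.86-fold in A2058, and without replicates the differences between lines could not be tested.

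Between the control cells, which share their columns with the comparisons above, 2 of the 10 genes, PLAU and PLAUR, were higher in C8161 by a log2 ratio of 1 or more, where 9.36% of 12372 genes were, and 4, MMP1, TIMP2, TIMP3 and PLAT, were lower, where 20.7% of genes were. After quantile normalization these shares were 13.6% and 15.1%, and with the median of all genes set to 0 they were 12.3% and 16.5%. The median log2 ratio of the 10 was −0.24, beside −0.19 over all genes. TIMP2 is the one of these 6 whose call depends on scaling, since its log2 ratio of −1.13 was −0.95 once the median of all genes was set to 0. For MMP2, MMP14 and MMP16 the signs of the small line differences turned under some scalings or with trend removal, so no direction is given for them.

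**Figure D5:**
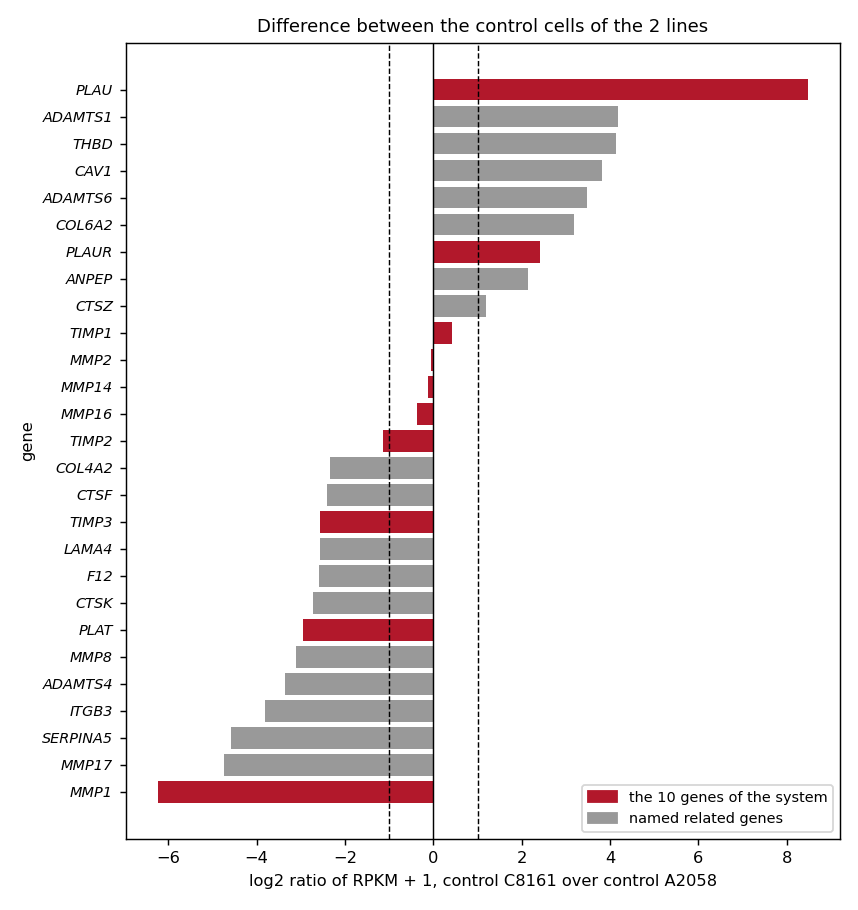
Log2 ratio of RPKM + 1, control C8161 over control A2058, for the 10 genes of the system (red) and for the related genes given in the text (grey), sorted from highest to lowest; dashed lines mark a ratio of 1 in each direction. PLAU is at the top with 8.48 and MMP1 at the bottom with −6.23, and MMP2, MMP14, MMP16 and TIMP1 lie between the dashed lines.

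Of 18 listed partners of the plasminogen system, 13 could be compared between the control columns. Past a log2 ratio of 1, 5 were higher in C8161 and 4 were lower, where 9.36% of all genes were higher and 20.7% lower, and the list median was 0.25, beside −0.19 over all genes. THBD, the endothelial anticoagulant receptor thrombomodulin, was at 16.9 RPKM in C8161 controls and 0.01 RPKM in A2058 controls. On the other side, SERPINA5, an inhibitor of activated protein C and of urokinase, was at 0.05 RPKM in C8161 controls and 23.9 RPKM in A2058 controls, and coagulation factor F12 was at 0.66 RPKM in C8161 controls and 8.92 RPKM in A2058 controls.

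With ATF3, 1 of 10 compared partners was higher and 1 lower past 0.25 in C8161, where 2.58% and 3.2% of all genes were. The list median was −0.06, beside 0.01 over all genes. S100A10, which binds plasminogen at the cell surface in a complex with annexin A2, was at 441 RPKM in C8161 with ATF3 and 355 RPKM in C8161 controls. SERPINB2, plasminogen activator inhibitor 2, was at 8.13 RPKM in C8161 with ATF3 and 10.95 RPKM in C8161 controls. In A2058, 2 of 12 were higher and none lower, where 2.34% and 1.85% of all genes were, with a median of 0.04 beside 0.004 over all genes. SERPINB2 ran the other way there, at 3.03 RPKM in A2058 with ATF3 and 1.95 RPKM in A2058 controls, and SERPINI1, the neuronal inhibitor of tissue plasminogen activator, was at 2.74 RPKM in A2058 with ATF3 and 1.9 RPKM in A2058 controls.

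Of 20 other listed metalloproteinase genes, TIMP4 included, 18 are in the table and 4 could be compared with ATF3 in C8161, of which none passed 0.25 in either direction (median 0.00). In A2058 9 could be compared and 1 was lower. It was MMP12, singled out after the values were known, at 0.88 RPKM in A2058 with ATF3 and 1.35 RPKM in A2058 controls. Of all genes, 2.58% were higher and 3.2% lower in C8161, with a median of 0.01. In A2058 2.34% were higher and 1.85% lower. Between the control columns 1 of 11 was higher and 6 were lower in C8161, where 9.36% and 20.7% of all genes were, with a median of −1.09 beside −0.19 over all genes. MMP17, a membrane-type enzyme held by a lipid anchor, was at 0.21 RPKM in C8161 controls and 31.3 RPKM in A2058 controls, and the neutrophil collagenase MMP8 was listed at 0 in C8161 controls and at 7.67 RPKM in A2058 controls.

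Of the ADAM and ADAMTS proteases, 7 of 16 compared between the control columns were higher in C8161 and 1 was lower, where 9.36% and 20.7% of all genes were, and the list median was 0.75, beside −0.19 over all genes. ADAMTS1, which cleaves proteoglycans such as versican, was at 108 RPKM in C8161 controls and 4.96 RPKM in A2058 controls, and ADAMTS6 was at 14.2 RPKM in C8161 controls and 0.36 RPKM in A2058 controls. ADAMTS4, an aggrecanase, was at 0.1 RPKM in C8161 controls and 10.3 RPKM in A2058 controls. With ATF3, none of 14 compared genes in C8161 and none of 10 in A2058 passed 0.25 in either direction. The shares over all genes were 2.58% higher and 3.2% lower in C8161, and 2.34% and 1.85% in A2058.

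Cathepsins and cystatins, membrane regulators and matrix substrates completed the lists. With ATF3 in C8161, 1 of 12 cathepsin and cystatin genes was higher, CTSS, likewise singled out afterwards, at 1.04 RPKM against 0.68 RPKM in controls, and none of 15 membrane regulators passed the threshold. Among 14 compared substrates in C8161, the proteoglycan VCAN was higher, at 3.28 RPKM with ATF3 against 2.39 RPKM in controls, and the matrix glycoprotein TNC was lower, at 46.5 RPKM with ATF3 against 58.8 RPKM in controls. In A2058 none of 12 cathepsin and cystatin genes and none of 13 membrane regulators passed the threshold. Among 12 substrates 1 did, the collagen chain COL1A1, at 4.99 RPKM in A2058 with ATF3 against 3.97 RPKM in A2058 controls. These counts stand beside shares over all genes of 2.58% higher and 3.2% lower in C8161, and 2.34% and 1.85% in A2058. In lists this short they describe single genes.

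Between the control columns, 2 of 15 substrate genes were higher in C8161 and 6 were lower, where 9.36% and 20.7% of all genes were, and the list median was −0.60, beside −0.19 over all genes. COL4A2, a basement membrane collagen chain that MMP2 can cut, was at 34.1 RPKM in C8161 controls and 175 RPKM in A2058 controls, and the laminin chain LAMA4 was at 2.82 RPKM in C8161 controls and 21.8 RPKM in A2058 controls. COL6A2, a collagen VI chain, was at 44.7 RPKM in C8161 controls and 4 RPKM in A2058 controls. Among membrane regulators 5 of 15 were higher in C8161 and 1 was lower, with a median of 0.81: CAV1, caveolin 1, was at 155 RPKM in C8161 controls and 10.1 RPKM in A2058 controls, the aminopeptidase ANPEP was at 99.3 RPKM in C8161 controls and 21.6 RPKM in A2058 controls, and ITGB3, the integrin beta 3 chain that pairs with the alpha v chain, was at 2.06 RPKM in C8161 controls and 41.6 RPKM in A2058 controls. Of 13 cathepsins and cystatins, 1 was higher and 4 were lower, near the shares of all genes, with a median of −0.24. Among them were the lysosomal cathepsin CTSZ at 144 RPKM in C8161 controls and 62.3 RPKM in A2058 controls, the collagen-degrading cathepsin CTSK at 0.48 RPKM in C8161 controls and 8.74 RPKM in A2058 controls, and CTSF at 1.18 RPKM in C8161 controls and 10.6 RPKM in A2058 controls.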

How the data were processed

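The authors deposited 1 table of RPKM with 2 decimals for 18478 Entrez genes; per the submitters' processing notes, Bowtie2 and RSEM were used with hg38. Versions, annotation, strand setting and filters: not given in the sources used here. It is not stated whether the combined C8161 columns are means or values of pooled reads. Symbols and coordinates came from RefSeq GRCh38.p14, the assembly of that build, by Entrez identifier; 18156 identifiers had a symbol. GC content, length and shared 50-base stretches came from GENCODE 29.

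RPKM were used as deposited. A ratio was the difference of log2(RPKM + 1), computed over all genes with at least 1 RPKM in 1 of the 2 columns (Python 3.11.15, pandas 2.3.3). In place of limma, planned for values per library, a gene was called past 0.25 (1.19-fold on RPKM + 1) for ATF3 and past 1 (2-fold) between lines. Read steps were sought over transcripts of 400 to 1500 bases. The calculation was tested on simulated data. Members, lists and thresholds were chosen with earlier results of these data known. Related genes are named by rule: a mean of at least 2 RPKM, past the threshold, and among the 2 highest or 2 lowest of their list; genes so chosen that are not given are not reported here.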

Additional observations from a re-analysis of the deposited data

Results flagged for a closer look

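In 5 of the 9 genes compared in both lines the log2 ratio of ATF3 cells over controls had opposite signs in C8161 and A2058, each line giving 1 value, so the difference was not tested. Opposite signs were also seen in 51.5% of all 10331 genes compared in both lines, so the count is near the background. The difference, C8161 minus A2058, was 0.39 for MMP2 (0.38 in C8161, −0.01 in A2058), −0.43 for PLAUR (−0.13 and 0.31), −0.31 for TIMP1 (−0.24 and 0.07; −0.19 with GC and length trends removed), −0.29 for MMP1 (−0.17 and 0.12) and −0.003 for TIMP2 (−0.002 and 0.001). For TIMP2 both ratios are so near 0 that their signs carry no information, and for MMP2 the A2058 ratio is also near 0. MMP1 was near 1 RPKM in both C8161 columns. The ATF3 level reached with the introduced gene also differed, at 62.6 RPKM in C8161 and 4.71 RPKM in A2058; its part in these differences was not tested.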

How the results depend on the processing

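No paired analysis was possible because the table gives 1 column per group, and no library could be left out for the same reason. Across 9 alternatives, MMP2, TIMP3 and PLAT in C8161 and PLAUR in A2058 stayed past 0.25 under each other pseudocount, level minimum, scaling and trend removal. At a threshold of 0.375 MMP2 and PLAT stayed in C8161, where 0.548% of all genes were higher and 0.503% lower. In C8161 a threshold of 0.125 called 6 genes, 3 higher and 3 lower, where 15% of all genes were higher and 15.9% lower. The median of the 10 in C8161 was 0.05 with GC and length trends removed, beside 0.02 over all genes. MMP1 there was called lower at −0.30 and −0.32 with pseudocounts of 0.1 and 0.01, and TIMP1 at −0.25 with the median ratio set to 0, 4 calls in each case. With the median ratio set to 0, 2.34% of all genes were higher and 3.59% lower in C8161. In A2058, 2 genes were called with no minimum level, PLAU being added, where 2.44% of all genes were higher and 2.02% lower. At a threshold of 0.125, 2 genes were called in A2058, where 11.2% of all genes were higher and 9.8% lower. At 0.375 the count in A2058 was 0, where 0.665% of all genes passed in each direction. Between controls the median was −0.11 with a minimum of 5 RPKM (−0.14 over all genes) and −0.06 with the median ratio set to 0 (0.00 over all genes). It was −0.07 after quantile normalization (0.08 over all genes) and −0.19 with trends removed (−0.14 over all genes). TIMP2 missed the threshold at −0.95 with the median set to 0 and at −0.995 with trends removed. MMP2 was at −0.06 in the main comparison, and at 0.13, 0.08 and 0.19 under these scalings and trend removal; MMP14 turned to 0.07 and 0.23 with the median set to 0 and trends removed, and MMP16 to 0.03 after quantile normalization. Over all genes, pseudocounts of 0.1 and 0.01 took the shares past 0.25 to 4.34% and 4.52% higher and 5.1% and 5.27% lower in C8161, and to 4.23% and 4.59% higher and 3.64% and 3.94% lower in A2058. The cause of these shifts was not tested. Depth limits PLAU in A2058, and MMP1 in C8161 lies near the level minimum.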
